A study of Homo sapiens with 43 samples.

Results

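Induced HEL cells that expressed the Q157R mutant of U2AF1 were compared with induced HEL cells that expressed wild-type (WT) U2AF1, by RNA-seq of 2 libraries against 2. The members were the 2 induced Q157R and the 2 induced WT columns of the RNA count table, taken by their names, so that 4 of the 43 samples of the series carried the comparison. HEL is an established human erythroleukemia line. Its cells were stably transfected with Q157R, S34F or WT U2AF1, and protein expression was switched on with doxycycline at 1 µg/ml for 48 hours in the induced groups. The labels do not say whether each line was 1 clone or a pool, and stable transfection leaves the cells' own U2AF1 in place. The remaining RNA-seq libraries were 1 uninduced Q157R, 2 induced S34F, 1 uninduced S34F and 2 uninduced WT libraries. RNA was sequenced after depletion of ribosomal RNA. The values are read counts per gene, scaled to the library size adjusted by TMM (trimmed mean of M-values) factors and given as CPM.

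U2AF1 is the small subunit of U2AF, which finds the 3′ ends of introns early in splicing. It contacts the AG dinucleotide at the intron's end, and its partner U2AF2 binds the polypyrimidine tract before it. Residues S34 and Q157 lie in the zinc fingers of U2AF1, and both are sites of recurrent mutation in myeloid malignancies. Gene-level counts show how much RNA of a gene was present and do not show how it was spliced.

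U2AF1 stood at 21.5 and 15.2 CPM in induced Q157R cells, against 19.1 and 11.01 CPM in induced WT cells, a log2 difference of 0.29 ± 0.22 (SE; edgeR adjusted p = 0.784). The groups overlapped. Before induction U2AF1 stood at 22.1 CPM in the 1 Q157R library, against 13.4 and 12.6 CPM in the WT libraries. The uninduced log2 difference was 0.60. Neither induced Q157R library lay above the uninduced one, and the uninduced WT libraries lay between the induced WT libraries. A rise of U2AF1 on induction was thus not visible in these levels, and its change within each line was not tested. The counts do not separate the introduced copy from the cells' own gene, nor fully from U2AF1L5, an almost identical copy, so they do not check the labels. U2AF2 stood at 346 and 250 CPM in Q157R cells, against 378 and 278 CPM in WT cells, a log2 difference of -0.14 ± 0.13 (edgeR adjusted p = 0.843). The libraries held 22392303 to 40370092 gene counts. HEL markers were present: GATA1, the erythroid and megakaryocytic transcription factor, stood at 191 and 186 CPM in Q157R cells and 213 and 224 CPM in WT cells.

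Of 21300 genes tested, 4 were lower in Q157R cells at an adjusted p under 0.05 (0.0188%) and 0 were higher (0%), by edgeR's quasi-likelihood test with the replicate number as a block. The 4 were HADHA, a mitochondrial fatty acid oxidation enzyme, SAMHD1, which degrades deoxynucleotides, HERC6, an interferon-inducible member of the HERC ubiquitin ligase family, and GPRASP2, a protein that binds G protein-coupled receptors. At an unadjusted p under 0.05, 873 genes were lower (4.1%) and 897 were higher (4.21%). Without the block 0 genes were called and 716 had an unadjusted p under 0.05, while DESeq2 with the block called 77 genes (41 higher, 36 lower), all 4 among them. A fit of only the 4 libraries called 578. The labels number the replicates but do not say that equal numbers mark a shared culture or day.

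HADHA is the alpha subunit of the trifunctional protein of mitochondria, which carries out the last steps of each cycle of long-chain fatty acid oxidation. Its gene lies on chromosome 2 from 26190635 to 26244726 on the minus strand (GRCh38, GENCODE 29). HADHA stood at 72.3 and 89.2 CPM in induced Q157R cells, against 258 and 315 CPM in induced WT cells. Both Q157R libraries lay far below both WT libraries, and raw counts were 1945 and 2525 in Q157R against 10357 and 8569 in WT. The log2 difference was -1.83 ± 0.13 (SE, edgeR adjusted p = 1.70e-04). HADHA was also called after leaving out any 1 of the 4 libraries, and its difference lay between -1.85 and -1.80 under 13 alternatives. The exception in its call was the fit without the block, with an adjusted p of 0.292.

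Before induction HADHA stood at 242 CPM in the 1 Q157R library, against 270 and 314 CPM in the WT libraries. The uninduced Q157R library lay a little below the WT libraries and far above both induced Q157R libraries. The uninduced log2 difference was -0.14 ± 0.16 (edgeR adjusted p = 1), with the single Q157R library assumed to vary like the other groups. In induced S34F cells HADHA stood at 198 and 235 CPM, and in uninduced S34F cells at 267 CPM. After TMM scaling both induced S34F libraries lay below both induced WT libraries. For S34F replicate 2 against WT replicate 1 that order rests on the scaling. The TMM factors were 1.134 and 1.131 in induced S34F libraries, against 0.9946 and 0.9778 in induced WT libraries. The S34F comparison uses the same WT libraries, so it is given only as levels.

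HADHB, which encodes the beta subunit of the same complex, is transcribed away from HADHA from the neighbouring start on the opposite strand. HADHB stood at 103 and 118 CPM in induced Q157R cells, against 91.6 and 115 CPM in induced WT cells, a log2 difference of 0.10 ± 0.14 (edgeR adjusted p = 0.902). Its groups overlapped, and its difference turned to -0.0046 without WT replicate 1. The ratio of HADHA to HADHB reads within a library was 0.701 and 0.755 in induced Q157R cells, against 2.82 and 2.74 in induced WT cells. It was 2.32 in uninduced Q157R cells, against 2.497 and 2.586 in uninduced WT cells, and 2.11 to 2.55 in the S34F libraries. The ratio set the 2 induced Q157R libraries apart from the other 8. The strand setting of the counting is not given in the sources used here, and GENCODE's longest HADHB model overlaps the start of HADHA.

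The divergent start is shown here because HADHA was called and HADHB, on its other side, was not. The sequence is the 250 bases before the RefSeq start of HADHA on the minus strand (GRCh38.p14, chr2:26244633-26244882). Capitals mark the 194 bases that also lie within the 250 bases before the RefSeq start of HADHB.
HADHA: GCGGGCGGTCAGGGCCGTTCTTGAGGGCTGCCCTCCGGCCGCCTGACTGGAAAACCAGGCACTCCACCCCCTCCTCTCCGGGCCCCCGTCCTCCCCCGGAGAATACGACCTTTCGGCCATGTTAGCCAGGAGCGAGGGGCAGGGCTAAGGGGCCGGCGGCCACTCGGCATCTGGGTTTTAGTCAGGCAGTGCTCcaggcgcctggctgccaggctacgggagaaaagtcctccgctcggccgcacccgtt
Most of the window was shared by the 2 genes. RefSeq and GENCODE differ in where they place some starts, so GENCODE models can begin inside a window given here.

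**Figure D1:**
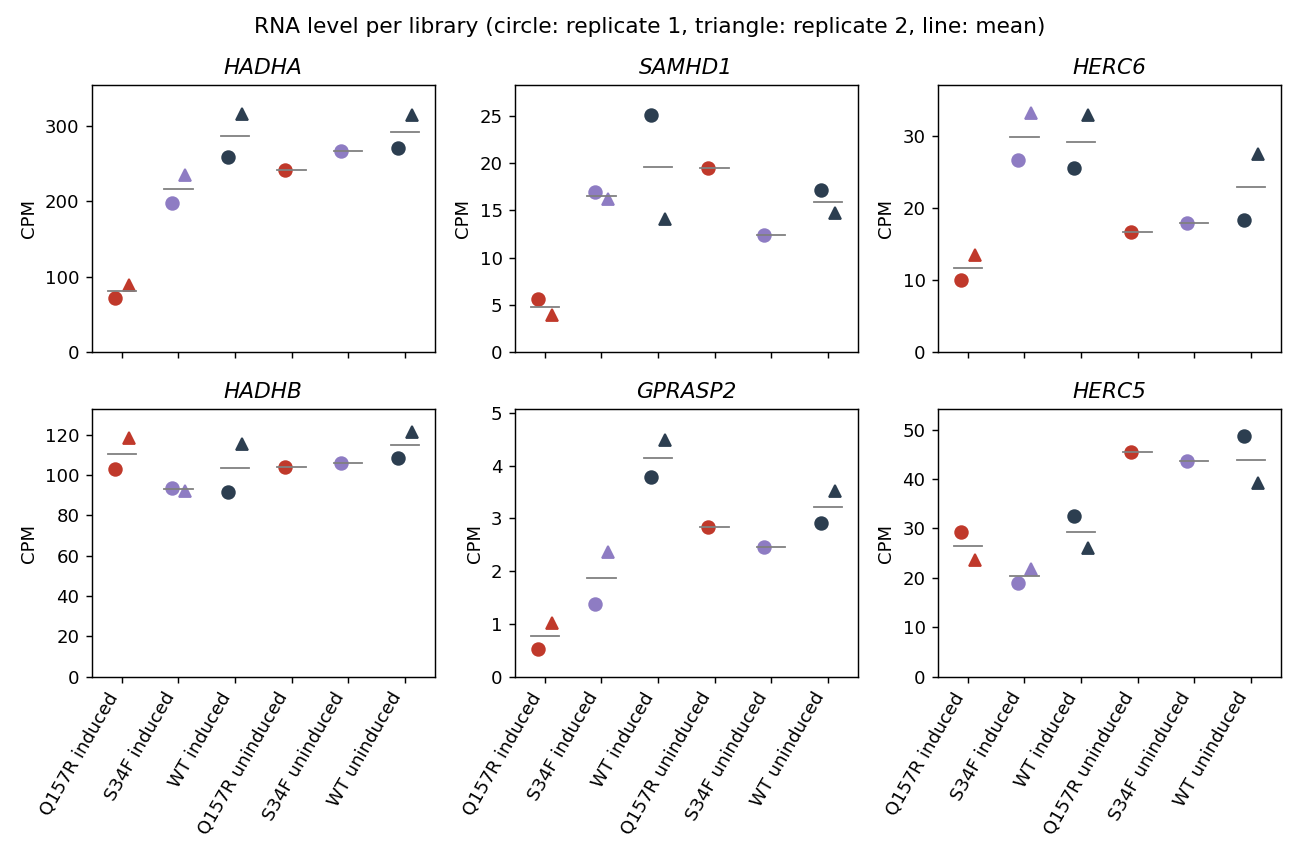
RNA level in CPM (linear axes from 0) of the 4 genes called lower and of HADHB and HERC5, neighbours of called genes, in each RNA-seq library. Circles are replicate 1, triangles replicate 2 and grey lines group means. HADHA lay at 72.3 and 89.2 CPM in induced Q157R cells, against 258 and 315 CPM in induced WT cells, while HADHB overlapped between these groups.

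SAMHD1 cleaves deoxynucleoside triphosphates, limits the supply for DNA synthesis and restricts retroviruses in myeloid cells. Its gene lies on chromosome 20 from 36889773 to 36951901 on the minus strand. SAMHD1 stood at 5.62 and 3.99 CPM in induced Q157R cells, against 25.1 and 14.1 CPM in induced WT cells. The groups did not overlap, although the WT libraries differed from each other by more than the Q157R libraries did. The log2 difference was -2.01 ± 0.22 (edgeR adjusted p = 0.0110). Uninduced levels were 19.4 CPM in the Q157R line, against 17.1 and 14.7 CPM in the WT line, and induced S34F cells held 16.9 and 16.2 CPM. The call was lost after leaving out Q157R replicate 1, Q157R replicate 2 or WT replicate 1, and was kept without WT replicate 2.

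HERC6 lies on chromosome 4 from 88378739 to 88443111 on the plus strand, next to its paralog HERC5, which in human cells is the ligase that attaches the ubiquitin-like protein ISG15. HERC6 stood at 10.0 and 13.5 CPM in induced Q157R cells, against 25.5 and 32.9 CPM in induced WT cells. Both Q157R libraries lay below both WT libraries, with a log2 difference of -1.32 ± 0.16 (edgeR adjusted p = 0.0247). Uninduced levels were 16.7 CPM in the Q157R line, against 18.4 and 27.5 CPM in the WT line. HERC5 stood at 29.3 and 23.7 CPM in induced Q157R cells, against 32.5 and 26.0 CPM in induced WT cells. HERC5 overlapped between the groups (log2 difference -0.14 ± 0.17, edgeR adjusted p = 0.887). Leaving out any 1 of the 4 libraries ended the call for HERC6.

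The promoters of these paralogs are shown because both are interferon-inducible, while HERC6 was called and HERC5 was not. The 250 bases before each RefSeq start (GRCh38.p14, plus strand, chr4:88378602-88378851 for HERC6 and chr4:88456869-88457118 for HERC5) were searched on both strands for GAAA, any 2 bases and GAAA, the core of the interferon-stimulated response element. Capitals mark each match.
HERC6: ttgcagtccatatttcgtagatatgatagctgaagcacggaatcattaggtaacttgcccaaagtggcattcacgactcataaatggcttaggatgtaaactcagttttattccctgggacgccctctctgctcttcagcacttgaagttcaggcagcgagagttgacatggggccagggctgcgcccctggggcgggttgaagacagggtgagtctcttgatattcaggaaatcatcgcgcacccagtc
HERC5: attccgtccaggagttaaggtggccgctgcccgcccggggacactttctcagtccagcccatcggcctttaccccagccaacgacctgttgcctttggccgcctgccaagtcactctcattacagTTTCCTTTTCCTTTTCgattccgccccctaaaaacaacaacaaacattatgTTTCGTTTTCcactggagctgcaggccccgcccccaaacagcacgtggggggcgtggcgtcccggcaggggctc
HERC5 had 3 matches, 2 of them overlapping, and HERC6 had 0 in this window. Of 35116 RefSeq windows of this length, 1061 held the motif (3.02%), and of 41 matched interferon-stimulated effectors 25 did (61%). None of the windows of HADHA, SAMHD1, GPRASP2 and STAT2 held it.

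GPRASP2 binds the tails of G protein-coupled receptors and takes part in their sorting to lysosomes. Its gene lies on chromosome X from 102712176 to 102717733 on the plus strand, and a readthrough transcript, ARMCX5-GPRASP2, overlaps it. GPRASP2 stood at 0.521 and 1.02 CPM in induced Q157R cells, against 3.79 and 4.49 CPM in induced WT cells. These values rest on 14 and 29 reads in Q157R and 152 and 122 reads in WT, and the groups did not overlap. The log2 difference was -2.45 ± 0.32 (edgeR adjusted p = 0.0363). Uninduced levels were 2.84 CPM in the Q157R line, against 2.92 and 3.52 CPM in the WT line. Induced S34F cells held 1.38 and 2.37 CPM, also below both induced WT libraries. Leaving out any 1 of the 4 libraries ended the call for GPRASP2.

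Other neighbours of the called genes were not called. GPRASP1, a paralog beside GPRASP2, stood at 1.97 and 2.51 CPM in Q157R cells, against 4.51 and 4.20 CPM in WT cells (log2 difference -0.98 ± 0.29, edgeR adjusted p = 0.370). The readthrough ARMCX5-GPRASP2 had a log2 difference of -0.36 and BHLHB9, on the other side, -0.33. TLDC2, which overlaps SAMHD1, did not pass the filter on low counts. Beside SAMHD1, SOGA1 had -0.09 and RBL1, a relative of the retinoblastoma protein, 0.38. Beside HERC6, the phosphatase gene PPM1K had -0.07. Beside HADHA and HADHB, GAREM2 had -0.15 and ADGRF3 0.21. The signs for SOGA1, PPM1K, GAREM2, ADGRF3 and BHLHB9 turned when 1 library was left out.

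The difference between lines was compared with and without doxycycline. In uninduced cells 0 of 21300 genes differed between the Q157R and WT lines by the adjusted test (0%), with 338 at an unadjusted p under 0.05 by edgeR and 1 call by DESeq2. The test of the difference itself, the change on induction in Q157R cells minus that in WT cells, called 1 gene (0.00469%), HADHA, at -1.69 ± 0.20 on the log2 scale (edgeR adjusted p = 0.0435). That adjusted p ranged from 3.14e-09 to 1 over 13 alternatives, and the call ended in 8 of them, which included leaving out any 1 of the 4 induced libraries. The same difference was -2.10 for SAMHD1 (edgeR adjusted p = 0.504), -1.10 for HERC6 (adjusted p = 1) and -2.54 for GPRASP2 (adjusted p = 1).

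**Figure D2:**
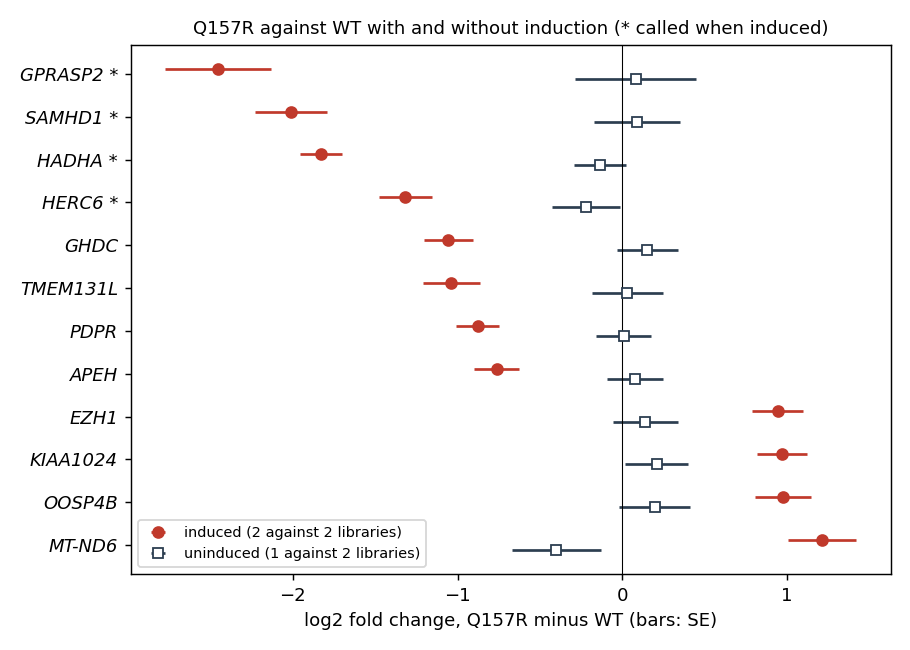
Log2 fold change of Q157R minus WT with its standard error for the 4 called genes (asterisks) and the 4 uncalled protein-coding genes of lowest p on each side, in induced cells (red circles, 2 against 2 libraries) and in uninduced cells (open squares, 1 against 2 libraries). HADHA had -1.83 when induced and -0.14 when uninduced.

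No gene passed the test in the upward direction. Among uncalled protein-coding genes of at least 3 mean log2 CPM whose groups did not overlap, those with the lowest p were chosen by rank. Both Q157R libraries lay above both WT libraries in 13% of all tested genes and below them in 13.4%, so separated groups were common. MT-ND6, a complex I subunit and the one mitochondrial mRNA read from the light strand, stood at 588 and 364 CPM in Q157R cells, against 276 and 143 CPM in WT cells (log2 difference 1.21 ± 0.21, edgeR adjusted p = 0.150). Without the strand setting its reads cannot be told apart from those of heavy-strand transcripts. EZH1, a histone H3 lysine methyltransferase of Polycomb complexes, stood at 62.3 and 48.2 CPM in Q157R cells, against 36.0 and 22.3 CPM in WT cells (log2 difference 0.94 ± 0.16, adjusted p = 0.117 by edgeR). DDX39B, an RNA helicase that works with U2AF2 in spliceosome assembly and in mRNA export, stood at 195 and 133 CPM in Q157R cells, against 111 and 70.2 CPM in WT cells. INTS13, an Integrator subunit, had a log2 difference of 0.81, ACAA1, the peroxisomal thiolase, 0.96, EYA3, a transcriptional coactivator and phosphatase, 0.67, KIAA1024 0.97 and OOSP4B 0.98.

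On the low side, GHDC stood at 29.3 and 34.1 CPM in Q157R cells, against 55.6 and 77.5 CPM in WT cells (log2 difference -1.06 ± 0.15, edgeR adjusted p = 0.0567), the nearest to the threshold. PDPR, the regulatory subunit of pyruvate dehydrogenase phosphatase, stood at 125 and 106 CPM in Q157R cells, against 224 and 201 CPM in WT cells (log2 difference -0.88 ± 0.13, edgeR adjusted p = 0.0833); it has a near-identical copy that may share its reads. TOMM20, a receptor of the outer membrane import complex of mitochondria with many processed pseudogenes, stood at 232 and 292 CPM in Q157R cells, against 351 and 528 CPM in WT cells. TUBB1, the beta-tubulin of platelets, had a log2 difference of -0.80, APEH, a peptidase of acylated peptides, -0.76, TMEM131L -1.04 and NCR1, a natural killer cell receptor, -1.003. None of these passed the adjusted test.

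Among noncoding RNAs, NEAT1, the scaffold of paraspeckles, stood at 429 and 536 CPM in Q157R cells, against 266 and 222 CPM in WT cells (log2 difference 1.01 ± 0.20, edgeR adjusted p = 0.181). LINC01410 had 0.91 and TTC28-AS1 0.61. GATA2-AS1 had -0.77, FGD5-AS1 -0.61 and MT-RNR1, the small mitochondrial ribosomal RNA, -0.75. Reads of the antisense genes and of their partners cannot be told apart without the strand setting.

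**Figure D3:**
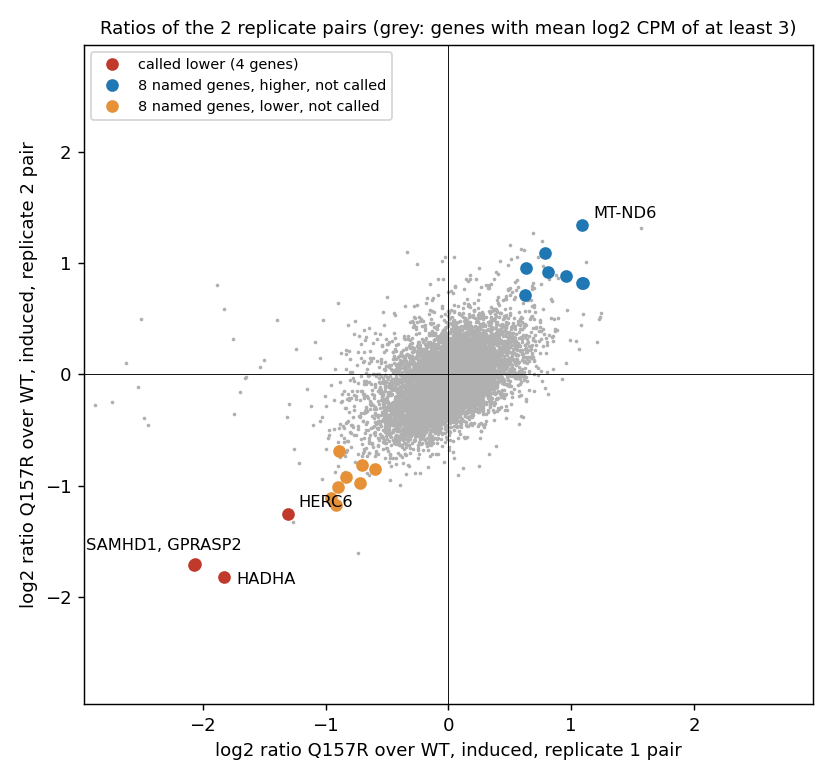
Log2 ratio of Q157R over WT in induced cells for replicate 1 (x axis) and replicate 2 (y axis), from CPM with 0.5 added. Grey points are the 10384 genes whose mean log2 CPM was 3 or more, red points the 4 called genes, blue and orange points the 8 uncalled named genes on each side. The 4 called genes lay far down in both pairs, and the ratios of the 2 pairs had a correlation of 0.483 across the grey genes.

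The ratios of replicate 1 and of replicate 2 had a Pearson correlation of 0.372 across all 21300 genes and 0.483 across the 10384 genes of at least 3 mean log2 CPM, a description across genes, which are not independent. Of all tested genes 7147 were lower and 6134 higher in both pairs. The SD of the log2 difference across the more abundant genes was 0.229. Reads outside annotated features made up 23.2% and 27.0% of reads in Q157R libraries, against 22.7% and 22.7% in WT libraries. The median log2 difference was 0.17 for 466 sense-intronic transcripts (0.11 in uninduced cells) and -0.03 for 13602 protein-coding genes (-0.03 in uninduced cells). Among the other large gene types it ranged from -0.02 for antisense genes to 0.22 for snoRNAs. The part of that share of reads in these values was not tested.

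Gene lists were read by their counts beside those of all genes, where the median log2 difference was -0.01 and 10305 genes were higher and 10995 lower. Mitochondrial fatty acid oxidation had 30 tested members, of which 18 were higher and 12 lower, with 1 called, HADHA, and a median of 0.03. No other enzyme of the pathway was called. ACADM, the medium-chain acyl-CoA dehydrogenase, stood at 195 and 197 CPM in Q157R cells, against 108 and 160 CPM in WT cells (log2 difference 0.56 ± 0.17, edgeR adjusted p = 0.411). CPT1A, which forms the acylcarnitine that enters mitochondria, stood at 33.8 and 21.4 CPM in Q157R cells, against 61.0 and 35.1 CPM in WT cells (log2 difference -0.78 ± 0.19, edgeR adjusted p = 0.280), with both Q157R libraries just below both WT libraries. ACADVL, the very-long-chain dehydrogenase, had 0.06, CPT2, the inner-membrane carnitine transferase, -0.21, and HADH, the short-chain hydroxyacyl dehydrogenase, 0.01. Peroxisomal oxidation and assembly had 11 higher and 11 lower of 22, with 0 called.

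HERC6 was the 1 called member among 48 tested interferon-stimulated effectors, of which 20 were higher and 28 lower, with a median of -0.05. LGALS3BP, a secreted glycoprotein of that list, had a log2 difference of -0.52. Of 21 genes of type I interferon signalling 10 were higher and 11 lower, and 0 were called. STAT2, which carries the interferon signal to the nucleus, stood at 72.4 and 76.5 CPM in Q157R cells, against 111 and 106 CPM in WT cells (log2 difference -0.55 ± 0.13, edgeR adjusted p = 0.259). IRF9, a DNA-binding factor that works with STAT2, had 0.79 (edgeR adjusted p = 0.700). In the HERC family 1 of 6 was higher and 5 lower, with HERC6 called, HERC4 at 0.41 and HERC2 at -0.18.

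SAMHD1 was the 1 called member among 26 enzymes of the deoxynucleotide pool, of which 13 were higher and 13 lower, with a median of 0.01. RRM2, the small subunit of ribonucleotide reductase, stood at 112 and 85.9 CPM in Q157R cells, against 163 and 97.3 CPM in WT cells (log2 difference -0.37, edgeR adjusted p = 0.589), and these groups overlapped. TYMS, thymidylate synthase, had -0.29, DCK, deoxycytidine kinase, 0.18, and RRM1, the large subunit of ribonucleotide reductase, 0.03.

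None of the listed splicing factor genes was called. Of 30 genes for U2 snRNP and 3′ splice site factors 8 were higher and 22 lower (median -0.06). SF1, which binds the branch point, had -0.41 ± 0.13 (edgeR adjusted p = 0.427), and RBM39, a U2AF2-related factor, 0.40 ± 0.13 (edgeR adjusted p = 0.439). Of 21 SR protein genes and their kinases 13 were higher and 8 lower (median 0.05), with CLK1 at 0.74 and CLK3 at 0.57, both kinases of SR proteins. Of 26 hnRNP genes 15 were higher and 11 lower (median 0.02). Of 26 genes remembered from the literature as splicing targets of U2AF1 mutants 12 were higher and 14 lower (median -0.03), with CASP8 at 0.42, ATR at -0.34, H2AFY at -0.19 and STRAP at -0.24. Of 21 factors of nonsense-mediated decay 3 were higher and 18 lower (median -0.10).

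**Figure D4:**
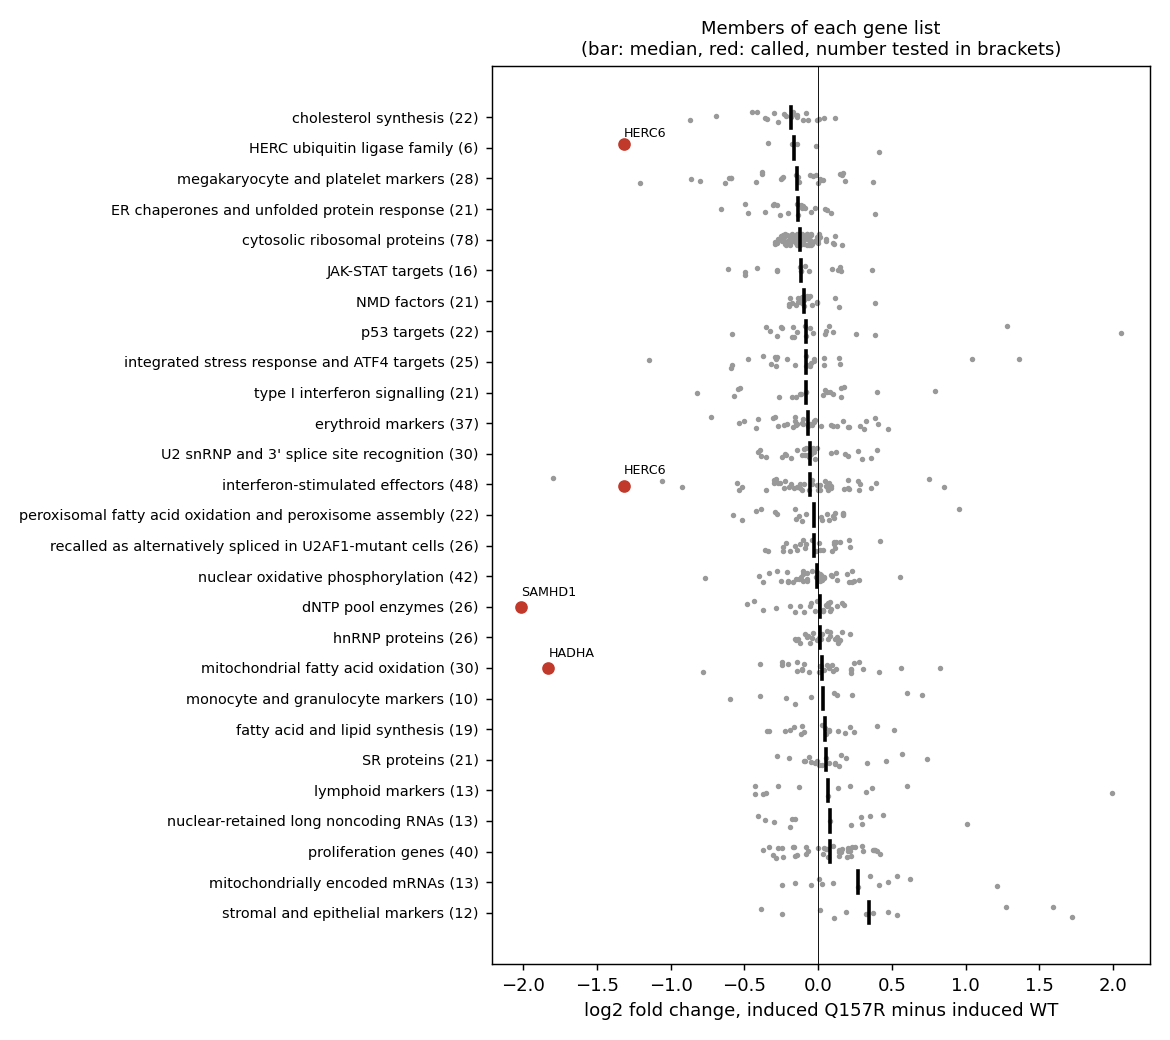
Log2 fold change of induced Q157R minus induced WT for each tested member of the gene lists (grey points), with the median of each list (black bar) and called members in red with their names. The number tested stands in brackets. HADHA and SAMHD1 lay far below the other members of their lists, while IFI44L, at under 0.5 CPM in all 4 libraries, lay below HERC6 without being called. No list median was below -0.18 or above 0.35.

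Lineage lists had 0 called members. Of 28 megakaryocyte and platelet markers 8 were higher and 20 lower (median -0.14, and -0.23 in uninduced cells). MPIG6B, an inhibitory receptor of megakaryocytes, stood at 411 and 504 CPM in Q157R cells, against 644 and 774 CPM in WT cells (log2 difference -0.63, edgeR adjusted p = 0.209). ITGA2B, the alpha subunit of the platelet fibrinogen receptor, had -0.60. Of 37 erythroid markers 13 were higher and 24 lower (median -0.07), with NFE2, an erythroid transcription factor, at -0.53 and ANK1, ankyrin of the red cell membrane, at -0.42. Markers of other cell types gave medians of 0.03 over 10 monocyte and granulocyte genes, 0.07 over 13 lymphoid genes and 0.35 over 12 stromal and epithelial genes. The monocyte and granulocyte markers summed to 323 and 347 CPM in Q157R libraries, against 282 and 362 CPM in WT libraries, with the monocyte receptor CD14 at 0.0372 and 0.177 CPM in Q157R libraries and 0.0997 and 0.147 CPM in WT libraries. Of these 10 monocyte and granulocyte markers 5 were higher and 5 lower. ITGAM, an integrin subunit of myeloid cells, stood at 19.2 and 21.0 CPM in Q157R libraries, against 10.3 and 14.7 CPM in WT libraries (log2 difference 0.71 ± 0.17, edgeR adjusted p = 0.273). CSF1R, a cytokine receptor of macrophages, had 0.60, and its groups overlapped. On the low side CEBPA had -0.60 and CSF3R -0.40. Of the 13 lymphoid markers 7 were higher and 6 lower, and they summed to 43.5 and 73.8 CPM in Q157R libraries, against 44.5 and 84.1 CPM in WT libraries. The stromal and epithelial list had 10 members higher and 2 lower, the keratins KRT8 (-0.39) and KRT18 (-0.24). It summed to 983 and 1294 CPM in Q157R libraries, against 821 and 1373 CPM in WT libraries. Vimentin (VIM) made up 357 and 821 CPM of this in Q157R libraries and 257 and 834 CPM in WT libraries. Of the 12 members 5 were under 1 CPM in all 4 libraries, among them LUM (1.72) and COL3A1 (1.59). The part of these markers in other values was not tested. Levels in a bulk sample do not tell fewer cells of a type from less RNA per cell.

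Of 13 mitochondrially encoded mRNAs 10 were higher and 3 lower (median 0.27, against -0.29 between the uninduced lines), and 0 were called. Their summed level was 18674 and 19835 CPM in Q157R libraries, against 22673 and 15009 CPM in WT libraries, so the groups overlapped. Of 78 cytosolic ribosomal protein genes 9 were higher and 69 lower (median -0.12), close to the -0.13 between the uninduced lines. Nuclear oxidative phosphorylation subunits had 20 higher and 22 lower of 42. Of 40 proliferation genes 26 were higher and 14 lower (median 0.08), with the mitotic cyclin CCNB1 at 0.42 and the spindle midzone protein PRC1 at 0.37. Of 22 cholesterol synthesis genes 3 were higher and 19 lower (median -0.18, and 0.11 in uninduced cells). Of 19 genes of fatty acid and lipid synthesis 11 were higher and 8 lower (median 0.05).

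Stress and signalling lists also had 0 called members. Of 25 integrated stress response and ATF4 targets 6 were higher and 19 lower (median -0.08). AARS, alanyl-tRNA synthetase, stood at 181 and 198 CPM in Q157R cells, against 302 and 606 CPM in WT cells (log2 difference -1.15 ± 0.23, edgeR adjusted p = 0.202), and SHMT2, the mitochondrial serine hydroxymethyltransferase, had -0.59. ASNS, asparagine synthetase, stood at 9.07 and 34.5 CPM in Q157R cells, against 5.16 and 14.8 CPM in WT cells (log2 difference 1.04 ± 0.25, edgeR adjusted p = 0.259), and these groups overlapped. Of 21 endoplasmic reticulum chaperones and unfolded protein response genes 4 were higher and 17 lower (median -0.14). Of 16 JAK-STAT targets 5 were higher and 11 lower (median -0.12), with MYC at -0.61 ± 0.14 (edgeR adjusted p = 0.246) and the kinase PIM2 at -0.50. Of 22 p53 targets 8 were higher and 14 lower (median -0.08). Of 13 nuclear-retained long noncoding RNAs 7 were higher and 6 lower (median 0.08).

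The called genes were then looked up in freCLIP, in which RNA crosslinked to U2AF1 by ultraviolet light was sequenced from 2 cuts of the membrane, a light one (37 to 65 kD) and a heavy one (65 to 110 kD). These libraries were shallow, with 38415 to 730996 gene counts. In the light fraction HADHA had 4 and 85 reads in the 2 Q157R libraries, against 0, 0 and 0 reads in the 3 WT libraries, and 1, 5 and 0 reads in the S34F libraries. In CPM, light S34F replicate 2 (106) lay above light Q157R replicate 2 (82.3). The summed Q157R libraries held 484 CPM, at least 76.7-fold higher than the 6.31 CPM that 3 counts over the summed WT libraries would give, an allowance for counting error only. HADHA was among the 92 of 6833 genes called higher in light Q157R (1.35%, edgeR adjusted p = 0.00301), while 427 were called lower. Most of its reads came from Q157R replicate 3, without which the fold was at least 13.0 and the adjusted p was 0.142.

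In the heavy fraction HADHA had 6 and 17 reads in Q157R libraries, against 3, 4, 6 and 9 reads in WT libraries. That is 63.6 and 52.2 CPM in Q157R, against 28.0, 46.1, 9.78 and 17.7 CPM in WT, a log2 difference of 1.31 ± 1.22 (edgeR adjusted p = 1). Heavy S34F libraries held 13.5, 24.1 and 44.3 CPM. The Q157R libraries lay above the WT libraries, but 0 of 6833 genes were called in this fraction (0%), with 149 at an unadjusted p under 0.05 by edgeR and 0 calls by DESeq2. HERC6 had 3 and 0 reads in light Q157R libraries, against 0, 4 and 21 reads in light WT libraries, and was not called. In the heavy fraction it had 1 and 0 reads in Q157R libraries, against 2, 3, 15 and 21 reads in WT libraries, a log2 difference of -2.91 ± 1.99 (edgeR adjusted p = 1), with both Q157R libraries below all 4 WT libraries in reads. SAMHD1 and GPRASP2 had too few reads to be tested.

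**Figure D5:**
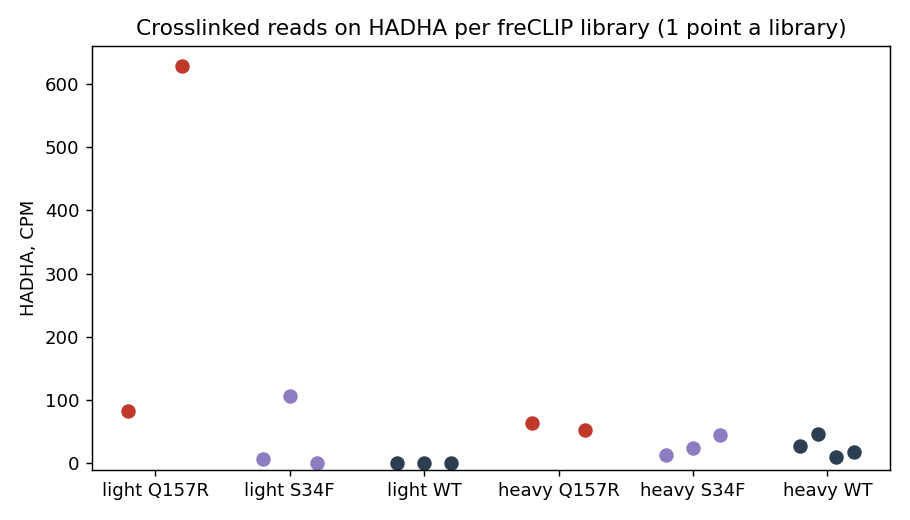
CPM of HADHA (linear axis) in each freCLIP library, light fraction on the left and heavy fraction on the right. Light Q157R libraries lay at 82.3 and 628 CPM, against 0 CPM in all 3 light WT libraries. Light S34F libraries lay at 6.83, 106 and 0 CPM.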

How the data were processed

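RNA-seq (10 libraries) and U2AF1 freCLIP (17 libraries) were analysed; eCLIP and TimeLapse-seq were not used here. The deposited values are raw read counts per gene. The submitters' processing notes list HTSeq, HISAT2, STAR (2.5.3a, 2.7.0f), SAMtools, cutadapt, DESeq2, edgeR and build GRCh38.p10; which tool did which step is not given in the sources used here. Of 58347 gene entries 58084 matched GENCODE 29. Lines that name no gene were dropped from tests and library sizes; the reads outside annotated features among them are given as a share in the report. Sequences came from RefSeq.

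All RNA libraries were fitted together in edgeR 4.0.16 (R 4.3.3) with 6 groups and the replicate number as a block: TMM scaling, filterByExpr with a minimum count of 10, robust quasi-likelihood F test, Benjamini-Hochberg adjustment over all genes, threshold 0.05. freCLIP used 6 groups and no block. Differences of replicate 1 minus 2 correlated across genes at 0.770 between induced Q157R and WT (0.25 to 0.77 over the group pairs), a hint of pairing that the labels do not state. P-values measure the spread between these samples, which may be technical; an exact permutation test of 2 against 2 cannot go below 0.333. Alternatives were DESeq2 1.42.0, RLE scaling, other filters, other gene or library sets, and each replicate left out. Named genes were U2AF1, U2AF2, called genes, their neighbours, the 8 lowest-p uncalled protein-coding and 3 noncoding genes each way with at least 3 mean log2 CPM and separated groups, and up to 2 members per list; 2 genes that the rule names are not reported here, and further list members were named after their values were seen. The 27 lists and the members were chosen with earlier results of these data known.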

Additional observations from a re-analysis of the deposited data

Results flagged for a closer look

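The change of HADHA on induction in Q157R cells minus that in WT cells was a log2 value of -1.69 (edgeR adjusted p = 0.0435). It was singled out because the test of that difference passed the threshold. The Q157R line had 1 uninduced library.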

How the results depend on the processing

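The induced comparison called 4 genes, and 0 without the replicate block, 179 with no filter on low counts, 1 with a minimum count of 50, 77 with DESeq2, 578 with the 4 libraries alone, 12 with the 6 induced libraries, and 1 to 3 with a replicate left out. The uninduced comparison called 6 with no filter, 1 with DESeq2 and 0 to 20 with a replicate left out (20 without WT replicate 1). The induction difference called 1, and 0 without the block, with a minimum count of 50 or with protein-coding genes only, 13 with no filter, 2 with DESeq2 and 0 to 13 with a replicate left out (13 without uninduced WT replicate 1). Light freCLIP called 519, and 333 with a replicate block, 263 with no filter and 137 (without Q157R replicate 3) to 1318 (without Q157R replicate 2) with a replicate left out. The cause was not tested, beyond fewer samples or other genes entering each fit. With a replicate left out, induced log2 differences ranged over 0 for HADHB (-0.0046 to 0.22), GAREM2 (-0.33 to 0.057), ADGRF3 (-0.052 to 0.50), SOGA1 (-0.20 to 0.033), PPM1K (-0.18 to 0.050) and BHLHB9 (-0.63 to 0.036). Uninduced ones did for SAMHD1 (-0.069 to 0.18) and GPRASP2 (-0.038 to 0.26, and -0.18 without the block), and light freCLIP HERC6 did (-6.54 to 0.15, and 0.41 with a replicate block). Of 84 named genes, 78 kept their sign in the induced comparison under every alternative run. Low genes such as GPRASP2 and all freCLIP values are limited by counts.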
